A study of Homo sapiens with 12 samples.

Results

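Radiation responses were compared between FaDu cells with STING (WT) and without it (KO), gene by gene, to ask which responses were lost, kept or gained when STING was absent. FaDu is an established human HNSCC line of squamous epithelial origin, and the STING gene appears under its older symbol, TMEM173. All cells expressed Cas9. WT cells carried non-targeting gRNA 2 and KO cells carried STING gRNA 2, and both had been selected with puromycin. With 1 gRNA per genotype, loss of STING cannot be told apart from other differences between the lines. They were grown in DMEM with FBS and were either unirradiated or given 4 daily fractions of 2 Gy, and the time from the last fraction to RNA collection is not given in the sources used here. With 3 libraries in each of the 4 groups, all 12 libraries of the series entered. Of 58288 genes listed, the 15973 with a TPM (transcript abundance scaled to a fixed total per library) of at least 1 in 3 or more libraries were tested. No source says that the libraries of a group came from separate cultures, so p-values measure the spread between these libraries, which may be technical.

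STING is a membrane protein of the endoplasmic reticulum. It is activated by the cyclic dinucleotide that cGAS makes on binding DNA in the cytosol, and it then recruits the kinase TBK1, which phosphorylates the transcription factor IRF3. The interferons made in response act through JAK kinases and the transcription factor complex ISGF3, which binds the interferon-stimulated response element in the promoters of interferon-stimulated genes. Ionizing radiation can bring DNA into the cytosol through micronuclei. It also acts through p53, NF-kB, AP-1 and the G2/M checkpoint, pathways that radiation can engage apart from STING.

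The lowest median difference among the gene lists was that of the interferon-stimulated genes. These had a median radiation effect of 0.25 on the log2(TPM + 1) scale in WT cells and -0.04 in KO cells, whereas matrix metalloproteinases, inflammatory ligands, NF-kB targets and G2/M genes had medians of the same sign in both. Across all genes a radiation effect is the mean log2(TPM + 1) of 3 irradiated libraries minus that of 3 unirradiated ones, and the difference of effects is the KO effect minus the WT effect. The scale understates the change of genes at low TPM.

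TMEM173 was read first. Its TPM was 21.7, 23.5 and 21.1 in unirradiated WT libraries and 26.1, 21.4 and 21.7 in irradiated ones. In KO libraries it was 5.18, 5.29 and 6.96 without radiation and 6.35, 7.41 and 7.08 after it, so that every KO library lay below every WT library. Its radiation effect was 0.05 in WT and 0.23 in KO, and the difference of effects was 0.18 (SE 0.16, limma unadjusted p = 0.29, adjusted p = 0.89). A transcript that remains in edited cells does not measure STING protein.

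Pearson's r between libraries of a group, across genes, was 0.983 to 0.987, and the libraries' median-of-ratios factors lay between 0.982 and 1.02. WT unirradiated replicate 3 was the lowest of its group over the interferon-stimulated genes, and the median of that list is also given without it. Epithelial markers, keratin 5 (KRT5) highest, summed to 10762 to 12782 TPM in every library. Of 7 fibroblast markers 1 reached a TPM of 1 in any library, of 5 endothelial markers 2, and of 8 leukocyte markers 2. The endothelial sum, led by CDH5, was 11.5 to 13.9 TPM in unirradiated and 18.3 to 18.7 in irradiated WT libraries, against 13.0 to 15.9 and 19.9 to 23.9 in KO libraries. LUM, CD2 and MS4A1 were listed at 0 throughout. In bulk RNA, fewer cells that express a gene and less RNA of it per cell cannot be told apart.

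Radiation changed 597 genes in WT cells at a limma adjusted p under 0.05, 357 higher (2.24% of tested genes) and 240 lower (1.50%). In KO cells it changed 590, of which 319 were higher (2.00%) and 271 lower (1.70%). The median effect over all tested genes was 0.02 in both. Of the 597 genes called in WT, 567 (95.0%) had an effect of the same sign in KO, with a median size of 0.45 in WT and 0.31 in the same direction in KO. The reverse reading was almost the same. Of the 590 called in KO, 560 (94.9%) had the same sign in WT, with a median size of 0.43 in KO and 0.31 in WT. Pearson's r between the WT and KO effects was 0.31 (Spearman's rho 0.34) across the 15973 genes. Genes are not replicates of each other. The WT and KO effects share no library. With any 1 WT library left out 242 to 372 genes passed in WT, and with any 1 KO library left out 268 to 364 passed in KO.

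Genes were then sorted by rule. A response was kept where both effects passed the threshold with the same sign, lost where only the WT effect passed and the difference of effects ran against it at an unadjusted p under 0.05, and gained where only the KO effect passed and the difference ran with it. By this rule 315 responses were kept (171 higher and 144 lower after radiation), 101 were lost (67 higher and 34 lower in WT) and 90 were gained (47 higher and 43 lower in KO). Another 358 genes passed in only 1 of the lines, 177 in WT and 181 in KO, without a difference at an unadjusted p under 0.05, and could not be told apart. In 4 genes (MPP7, MRE11, RIT1 and AC008750.8) both effects passed with opposite signs. The classes are a description, since they are taken from the same values as the tests. With 1 library fewer the kept genes numbered 174 to 227, by over 1.5 times fewer for each library except KO irradiated replicate 3 and WT unirradiated replicate 3. Lost genes numbered 44, 52 and 58 without WT irradiated replicate 1, 2 or 3, and gained genes 57, 47 and 53 without KO unirradiated replicate 1, 2 or 3 and 56 and 44 without KO irradiated replicate 2 or 3. Membership moved more than these counts. Without WT unirradiated replicate 1, 2 or 3 the lost genes numbered 74, 75 and 77, of which 41, 42 and 41 were among the 101, and without WT irradiated replicate 1 the 44 lost genes shared 29 with them.

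**Figure D1:**
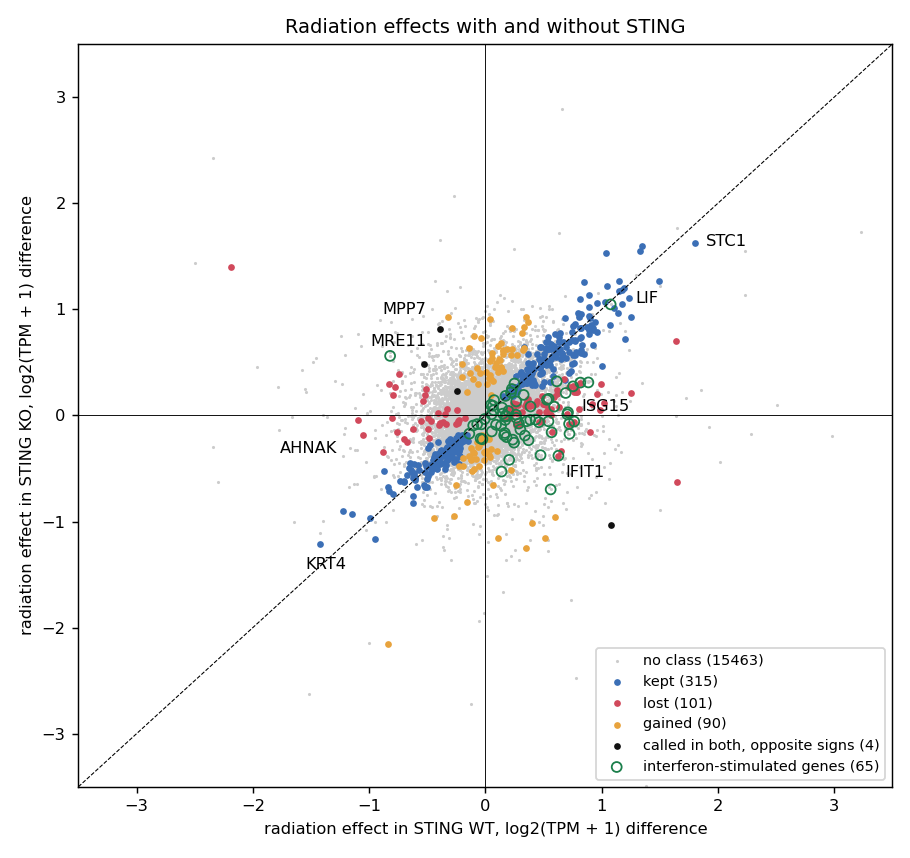
Radiation effect of every tested gene in WT cells (horizontal axis) and KO cells (vertical axis), both as differences of mean log2(TPM + 1) between 3 irradiated and 3 unirradiated libraries, with the dashed line marking equal effects. The 315 kept genes lie near the dashed line, and most circles of the 65 interferon-stimulated genes lie to the right of zero in WT and near zero in KO.

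The difference of effects itself passed an adjusted p under 0.05 in 3 genes (0.0188% of tested genes), all of them with the KO effect above the WT effect. At an unadjusted p under 0.05 the KO effect was above the WT effect in 501 genes (3.14%) and below it in 555 (3.47%). The median difference over all tested genes was -0.002. The count of 3 became 1 without KO unirradiated replicate 1 or 2, KO irradiated replicate 2 or WT irradiated replicate 2 or 3, and 5, 9 and 7 without KO unirradiated replicate 3, KO irradiated replicate 1 and WT unirradiated replicate 3.

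Interferon-stimulated genes had the lowest median difference of the 32 lists examined, -0.30. All 65 members of the list were tested, 57 had a KO effect below the WT effect, and for 30 (46.2%) the difference was at an unadjusted p under 0.05, against 3.47% of all genes. None of the 65 had a KO effect above the WT effect at that level. Radiation raised 12 members past the adjusted threshold in WT and none in KO, against 2.24% and 2.00% of all genes, and lowered none in either. Without adjustment 32 were higher in WT and none lower at p under 0.05, while in KO 4 were higher and 7 lower. No single member passed the adjusted threshold for the difference, the lowest adjusted p being 0.14 for IFIT1. Leaving out WT unirradiated replicate 3, which had the lowest unirradiated WT value for most members, moved the median difference to -0.18, with 50 of 65 members below 0. The 12 raised in WT became 5 without WT unirradiated replicate 1 or WT irradiated replicate 1 or 3, and 6 without WT unirradiated replicate 3 or WT irradiated replicate 2.

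Of the 7 members with the smallest p for the difference, 5 had a promoter in the table, and each is shown because it holds the letters of the interferon response element that ISGF3 binds. The stretches below, from RefSeq on GRCh38.p14, run 5′ to 3′ over the 150 bases before the annotated start, with matches to GAAANNGAAA on either strand in capitals. The coordinates and strands are chr10:89392473-89392622 plus for IFIT1, chr12:112938324-112938473 plus for OAS3, chr1:1013347-1013496 plus for ISG15, chr10:89414418-89414567 plus for IFIT5 and chr19:17405631-17405780 minus for BST2. Promoters of IFIT2 and OASL are named only.
IFIT1: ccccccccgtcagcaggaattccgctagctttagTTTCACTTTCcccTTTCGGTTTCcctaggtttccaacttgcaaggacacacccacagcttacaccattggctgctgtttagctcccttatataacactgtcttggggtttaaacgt
OAS3: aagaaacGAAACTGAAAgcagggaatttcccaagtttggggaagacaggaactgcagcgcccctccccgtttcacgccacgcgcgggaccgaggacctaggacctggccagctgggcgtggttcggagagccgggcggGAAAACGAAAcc
ISG15: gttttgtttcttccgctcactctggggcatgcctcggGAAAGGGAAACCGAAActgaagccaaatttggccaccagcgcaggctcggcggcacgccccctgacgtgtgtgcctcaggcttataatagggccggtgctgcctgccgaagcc
IFIT5: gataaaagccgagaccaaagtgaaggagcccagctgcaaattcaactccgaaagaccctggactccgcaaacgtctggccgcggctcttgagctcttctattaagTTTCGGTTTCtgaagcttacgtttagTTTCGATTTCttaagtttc
BST2: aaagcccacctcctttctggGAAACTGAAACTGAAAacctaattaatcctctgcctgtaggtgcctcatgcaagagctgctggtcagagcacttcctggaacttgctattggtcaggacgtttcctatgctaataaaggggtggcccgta
In ISG15 and BST2 both matches overlap each other. A match is a description of the letters and not a bound site.

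In windows from 250 bases before to 50 after a start, the motif GAAANNGAAA was found on either strand in 34 of the 51 interferon-stimulated genes with a promoter in the table (66.7%). It was found in 3.57% of all 35116 promoters and in 3.93% of tested genes with a promoter. The 26 members with a difference at an unadjusted p under 0.05 held it in 73.1%, and the 25 other members in 60.0%. Among kept genes that were higher after radiation it was found in 4 of 113 (3.54%). Among lost genes that were higher in WT it was found in 6 of 48 (12.5%), and in none of the 41 that are not on the interferon-stimulated list.

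Genes for IFIT proteins, which bind foreign RNA, showed the lowest differences by role, with a median of -0.70 and all 4 at an unadjusted p under 0.05. At that level 3.47% of all tested genes had a KO effect below the WT effect. IFIT1 was at 108, 118 and 89.3 TPM in unirradiated and 172, 171 and 144 TPM in irradiated WT libraries. In KO libraries it was at 18.8, 19.9 and 19.4 TPM and then at 15.3, 15.1 and 13.6 TPM. Every irradiated WT library was above every unirradiated one, and in KO the order was the reverse. The effects were 0.63 in WT (limma adjusted p = 0.0095) and -0.38 in KO (adjusted p = 0.075), a difference of -1.01 (SE 0.15, unadjusted p = 3.5e-05). IFIT2 was at 110, 108 and 85.8 TPM and then 172, 175 and 153 TPM in WT, and between 2.92 and 3.85 TPM in all 6 KO libraries, where irradiated and unirradiated values overlapped. Its difference was -0.80 (SE 0.15, unadjusted p = 2.7e-04). By whole gene spans LIPA lies across IFIT1, IFIT2 and IFIT3 on the other strand, and overlap of exons was not examined. The strand setting of the counting is not given in the sources used here. Whether reads of LIPA entered the values of these genes is therefore not known.

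The oligoadenylate synthetases make the messenger that activates RNase L. A KO effect below the WT effect at an unadjusted p under 0.05 was found in 3 of 4 (median -0.63), against 3.47% of all tested genes. OAS3 was at 126, 138 and 114 TPM in unirradiated and 175, 174 and 170 TPM in irradiated WT libraries. In KO libraries it was at 65.8, 63.3 and 63.3 TPM and then at 61.7, 63.6 and 58.6 TPM. The WT groups did not overlap and the KO groups did. Its difference of -0.52 (SE 0.09) had an unadjusted p of 1.3e-04 and an adjusted p of 0.27. OASL rose in WT, from 152, 169 and 120 to 227, 218 and 204 TPM, and lay between 0.585 and 1.10 TPM in KO libraries.

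ISG15 is a ubiquitin-like protein that is secreted and is also conjugated to other proteins by the ligase HERC5. ISG15 was at 334, 384 and 295 TPM in unirradiated and 572, 520 and 553 TPM in irradiated WT libraries. In KO libraries it was at 68.9, 64.7 and 68.2 TPM and then at 71.9, 68.6 and 62.9 TPM. The WT groups were apart by more than their range, and the KO groups overlapped. The effect was 0.70 in WT (adjusted p = 0.0019) and 0.01 in KO (adjusted p = 0.97), a difference of -0.69 (SE 0.12, limma unadjusted p = 2.0e-04, adjusted p = 0.27). HERC5 differed from ISG15 in this respect. It rose in WT, from 83.0, 85.0 and 62.9 to 125, 120 and 108 TPM, and was at 0.871, 1.24 and 1.26 and then 1.73, 1.36 and 1.87 TPM in KO, where no unirradiated library reached an irradiated one. Its effects were 0.61 and 0.32, and the difference of -0.29 (SE 0.18, unadjusted p = 0.14) could not be told from 0, and was -0.16 without WT unirradiated replicate 3. Of the 6 genes of ISG15 conjugation and removal, 2 had a lower KO effect at an unadjusted p under 0.05, against 3.47% of all tested genes.

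Of the RNA sensors and RNA-binding regulators 6 of 9 had a lower KO effect at an unadjusted p under 0.05, with a median of -0.21. Over all tested genes that share was 3.47%. DDX58, which encodes the RNA sensor RIG-I, rose in WT from 41.6, 44.5 and 32.7 to 69.9, 68.3 and 62.6 TPM. In KO it was at 4.33, 3.69 and 4.74 TPM and then 5.05, 5.23 and 5.73 TPM, without overlap, so that its response was smaller in KO (effects 0.75 and 0.27) but not opposite. The STAT and IRF factors had a median difference of -0.32, with IRF9, the DNA-binding part of ISGF3, at -0.90 (SE 0.25, unadjusted p = 0.0045). IRF9 was at 51.3, 54.3 and 40.1 TPM and then 85.5, 65.7 and 91.7 TPM in WT, with an adjusted p of 0.051 for that effect, and at 20.2, 23.0 and 18.5 and then 23.1, 16.4 and 15.4 TPM in KO. The PARP and DTX3L genes (median -0.26) and the TRIM, PML and SP genes (median -0.18) had 2 of 5 and 3 of 8 members at an unadjusted p under 0.05.

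Of the membrane and MX, IFI and IFITM effectors 5 of 16 were at that level, against 3.47% of all tested genes. BST2, which tethers budding virus to the cell, had a difference of -0.60 (SE 0.15, unadjusted p = 0.0019). IFI27 stood at the other end. It was at 86.9, 85.5 and 54.8 TPM and then 233, 135 and 124 TPM in WT, and at 9.92, 8.35 and 8.39 and then 22.7, 15.1 and 21.1 TPM in KO, with no overlap in either line. Its effects were 1.08 in WT (adjusted p = 0.046) and 1.05 in KO (adjusted p = 0.051), a difference of -0.03 (SE 0.36). TRIM25 (0.01), PARP12 (0.02) and NMI (0.01) had differences near 0 as well. At the low end of the list LGALS3BP, a secreted glycoprotein, was at 161, 287 and 334 and then 458, 294 and 371 TPM in WT, and at 305, 222 and 157 and then 156.5, 122.6 and 129.2 TPM in KO. Its groups overlapped in WT and not in KO, and the difference of -1.26 had an SE of 0.42. TRIM34 had the highest difference of the list, 1.38, at an unadjusted p of 0.10.

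Over the 65 members, irradiated WT libraries were all above the unirradiated ones in 33, against 14.7% of all tested genes, and all below in 1, against 10.1%. In KO the irradiated libraries were all above in 9, against 13.7%, and all below in 14, against 10.6%. Averaged over the list and set against the unirradiated WT mean, unirradiated WT libraries were at 0.07, 0.12 and -0.19 on the log2 scale, and irradiated ones at 0.39, 0.26 and 0.27. Unirradiated KO libraries were at -1.39, -1.38 and -1.35, and irradiated ones at -1.35, -1.39 and -1.41. The WT groups did not overlap and the KO groups did. Since 64 of 65 members had a lower mean in unirradiated KO than in unirradiated WT cells, the pseudocount weighs more on KO values. Among the 48 members with a mean of at least 5 TPM in unirradiated KO cells, a restriction chosen after the data were seen, 41 had a KO effect below the WT effect, 23 did so at an unadjusted p under 0.05, and the median difference was -0.21.

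**Figure D2:**
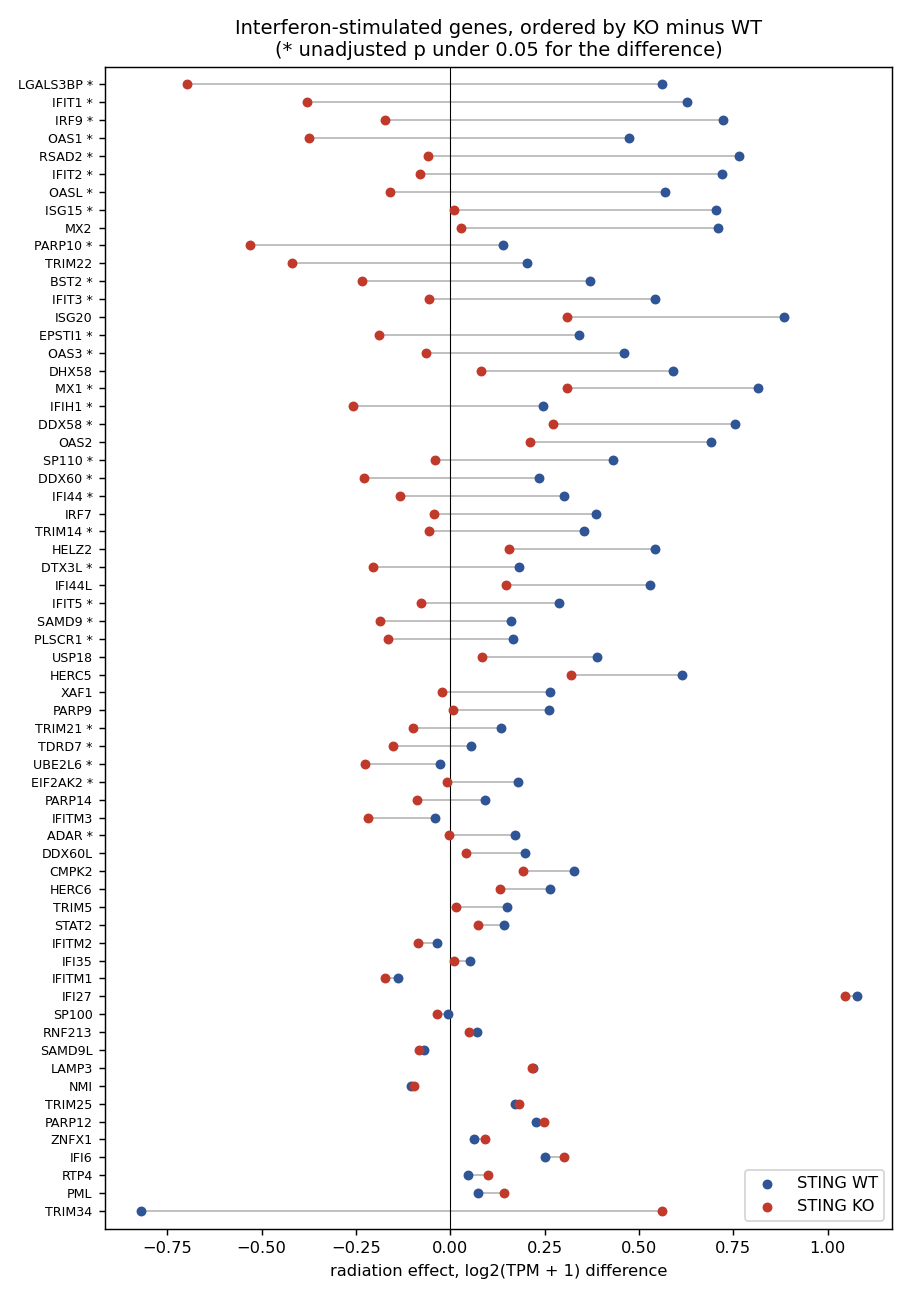
Radiation effect of 64 of the 65 interferon-stimulated genes in WT (blue) and KO (red) cells as a difference of mean log2(TPM + 1) between 3 irradiated and 3 unirradiated libraries, ordered by the KO effect minus the WT effect. In 56 of those drawn the red point lies left of the blue one, and the 29 with an asterisk had an unadjusted p under 0.05 for the difference.

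Interferons themselves were near the limit of the table. IFNB1 was listed at 0 in all 12 libraries. IFNL1, a type III interferon, was at 0.816, 0.865 and 0.658 TPM in unirradiated and 1.35, 2.19 and 0.514 TPM in irradiated WT libraries, which overlap, and was listed at 0 in all 6 KO libraries. Of 17 interferons, receptors and JAK kinases, 9 were tested, none passed the threshold in either line, and their median difference was 0.06. The STING pathway and nucleic acid sensors had a median of -0.09, with 2 of 20 lower at an unadjusted p under 0.05 (10%, against 3.47% of all genes). Those were IFI16, a DNA-binding protein (-0.21), and RNASEH2C, a subunit of RNase H2 (-0.16).

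Of 26 tested genes induced by interferon gamma, 22 had a KO effect below the WT effect, with a median of -0.13. At an unadjusted p under 0.05, 3 did so (11.5%, against 3.47% of all genes) and none the reverse. Those were CXCL11, PDCD1LG2 and APOL6. The median was -0.21 without KO unirradiated replicate 1, -0.20 without WT unirradiated replicate 1 and -0.08 without KO irradiated replicate 3. CXCL11, a T-cell chemokine, rose in WT from 0.640, 0.541 and 0.325 to 2.06, 2.04 and 1.98 TPM and was listed at 0 in 5 of 6 KO libraries. PDCD1LG2, the PD-1 ligand PD-L2, rose in WT from 0.604, 0.496 and 0.378 to 1.51, 1.22 and 1.14 TPM, against 0.130 to 0.203 and then 0.273 to 0.462 TPM in KO. The KO groups of PDCD1LG2 did not overlap either. CXCL11 and PDCD1LG2 reached a TPM of 1 only in irradiated WT libraries, so they entered the test through the group where they were high. Their differences are therefore a description and no support for the list. Class I antigen presentation genes had a median difference of -0.08, with 1 of 18 at an unadjusted p under 0.05 (5.56%, against 3.47% of all genes). This was HLA-C, a presenting heavy chain, with effects of 0.18 and 0.01. At the adjusted threshold 3 of the 18 fell in KO, against 1.70% of all genes, and none in WT, but none of the 3 had a difference between the lines at an unadjusted p under 0.05.

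Of 22 secreted inflammatory factors tested, 9 rose in WT, 5 rose and 1 fell in KO, 5 responses were kept, and the list's median effects were 0.30 and 0.23. Over all tested genes, 2.24% rose in WT, 2.00% rose and 1.70% fell in KO, and 1.97% were kept. CXCL8, a neutrophil chemokine, rose from 15.8, 16.4 and 11 to 33.2, 37.2 and 31.5 TPM in WT and from 17.9, 17.7 and 20.3 to 31.3, 35.7 and 27.6 TPM in KO. Its difference of -0.48 (SE 0.20) had an unadjusted p of 0.040. IL6 was the member whose response was lost by the rule. It rose from 1.54, 1.79 and 2.00 to 7.03, 8.21 and 7.74 TPM in WT, and in KO it was at 0.881, 2.38 and 1.46 and then 3.03, 3.19 and 2.97 TPM. The KO groups did not overlap either, so IL6 had a smaller response in KO (effects 1.64 and 0.70, difference -0.94, SE 0.25, unadjusted p = 0.0035) rather than none.

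Of 27 NF-kB targets tested, 8 rose and 1 fell in WT, 6 rose and 1 fell in KO, and 7 responses were kept. Over all tested genes 2.24% rose and 1.50% fell in WT, 2.00% rose and 1.70% fell in KO, and 1.97% were kept. TNFAIP3, the feedback inhibitor A20, had effects of 0.69 and 0.54, and NFKB2 had 0.41 and 0.31. The list's median difference was -0.06, and ranged from -0.11 without WT irradiated replicate 3 to -0.03 without WT irradiated replicate 1. Of 26 AP-1 and immediate early genes, 11 rose in WT, 10 rose and 2 fell in KO, and 10 responses were kept. A KO effect below the WT effect at an unadjusted p under 0.05 was found in 7 of 26, against 3.47% of all genes, and the reverse in none, against 3.14%. DUSP1, a phosphatase that switches off MAP kinases, rose from 7.62, 7.25 and 8.10 to 16.7, 15.0 and 17.4 TPM in WT and from 7.74, 7.51 and 7.43 to 10.2, 12.5 and 9.90 TPM in KO (difference -0.54, SE 0.13, unadjusted p = 0.0016). JUNB fell in KO, from 155, 152 and 162 to 124, 121 and 114 TPM (effect -0.38). In WT it went from 151, 150.5 and 140.7 to 136.6, 128.6 and 134.7 TPM, also without overlap, and that effect of -0.14 did not pass. The fall of JUNB was thus larger in KO rather than new. The AP-1 list's median effect was higher in KO (0.46) than in WT (0.29), while the median of its members' differences was -0.10. KLF4, an epithelial transcription factor named in the study, had effects of 0.32 and 0.50 with neither past the threshold.

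**Figure D3:**
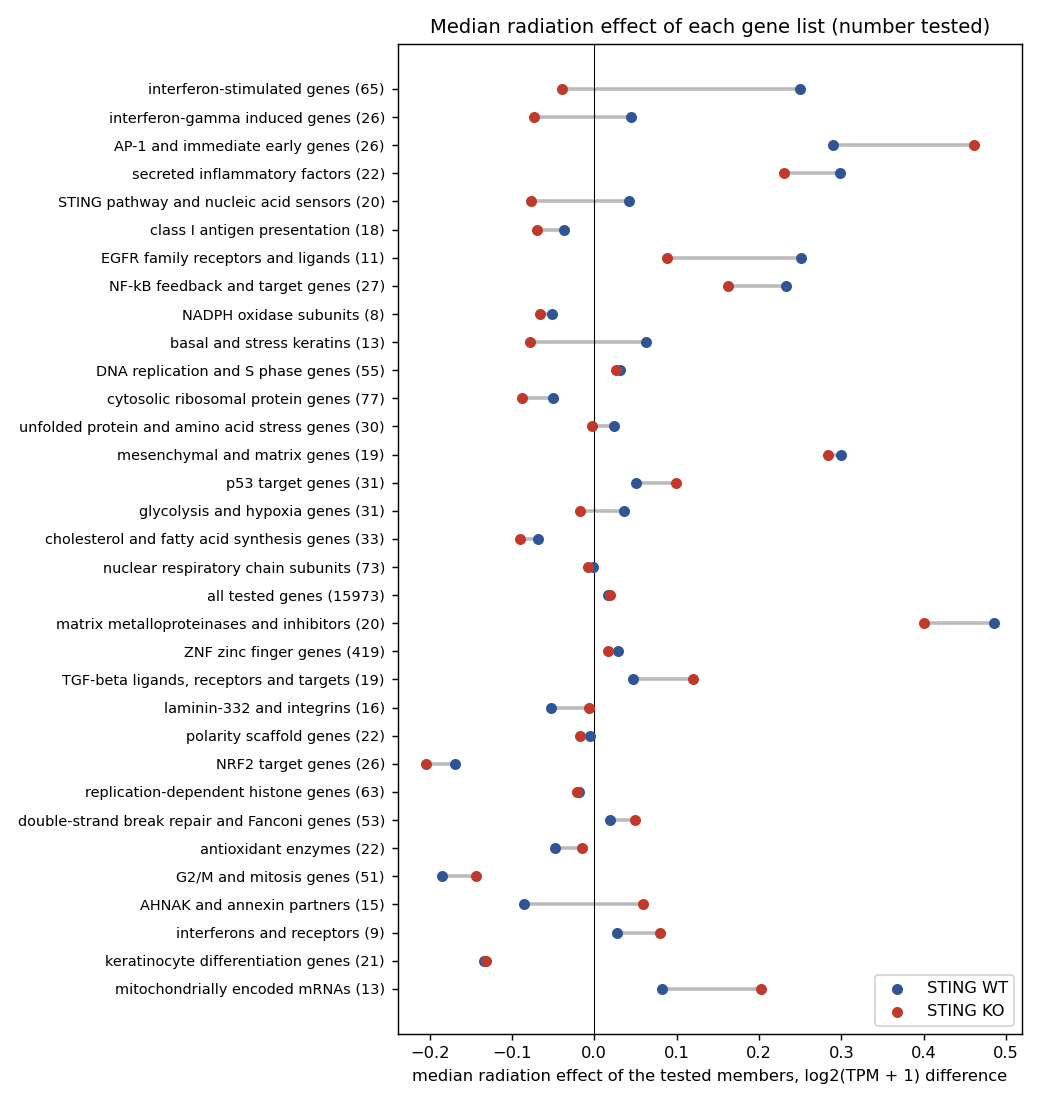
Median radiation effect over the tested members of each gene list in WT (blue) and KO (red) cells, as a difference of log2(TPM + 1), with the number of members tested in brackets and lists ordered by the median of their members' KO minus WT differences. The interferon-stimulated genes, at the top, were at 0.25 in WT and -0.04 in KO, and the matrix metalloproteinases at 0.49 and 0.40.

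Of 20 metalloproteinases, inhibitors and plasminogen activators tested, 9 rose in each line, 7 of them in both, and none fell. Over all tested genes 2.24% rose in WT and 2.00% in KO, and 1.97% were kept. The list's median difference was -0.00 against effects of 0.49 and 0.40. MMP1, interstitial collagenase, had effects of 1.14 and 0.97, and MMP10, stromelysin-2, had 1.04 and 1.22. Mesenchymal and matrix genes had 8 of 19 raised in WT and 7 in KO with 6 kept, among them fibronectin (FN1, 0.68 and 0.92) and N-cadherin (CDH2, 0.57 and 0.63). Of the EGFR ligands, AREG, EREG and HBEGF rose in both lines, whereas TGFA rose in WT from 22.6, 22.4 and 21.2 to 31.1, 30.3 and 29.3 TPM and was at 25.2, 23.4 and 27.6 and then 28.4, 26.9 and 27.0 TPM in KO (difference -0.33, SE 0.09, unadjusted p = 0.0044).

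The 5 kept genes that rose most in the line where they rose less were STC1, IGFL1, IL1RL1, IL1R2 and LIF. STC1, a secreted glycoprotein, went from 2.05, 1.60 and 1.68 to 8.89, 8.64 and 8.40 TPM in WT. In KO it went from 1.47, 1.23 and 1.81 to 6.55, 6.72 and 6.79 TPM. LIF, a cytokine of the IL-6 family, had effects of 1.20 in both lines and a difference of 0.00 (SE 0.07). IGFL1, an IGF-like ligand, rose in both and further in KO (effects 1.34 and 1.59, difference 0.25, SE 0.08, unadjusted p = 0.0099). The IL-1 family receptors IL1RL1 and IL1R2 had effects of 1.33 and 1.55, and of 1.49 and 1.26.

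The 5 kept genes that fell most by the same measure were KRT4, ALDH3A1, SERPINB3, SLC47A2 and SERPINB13. KRT4, a keratin of stratified mucosa, went from 28.5, 24.6 and 21.8 to 9.68, 8.47 and 7.86 TPM in WT and from 55.3, 59.5 and 60.7 to 22.6, 24.4 and 27.1 TPM in KO. ALDH3A1, an aldehyde dehydrogenase, had effects of -0.99 and -0.97. SERPINB13 and SERPINB3, serine protease inhibitor family members of squamous epithelium, had effects of -1.23 and -0.90, and of -0.95 and -1.16, and SLC47A2, an organic cation exporter, had -1.14 and -0.93. The WT effect of SERPINB3 lost its call without WT unirradiated replicate 1 or WT irradiated replicate 2 or 3. Over the 21 keratinocyte differentiation genes tested, 3 responses were kept and 1 lost, against 1.97% and 0.632% of all tested genes.

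**Figure D4:**
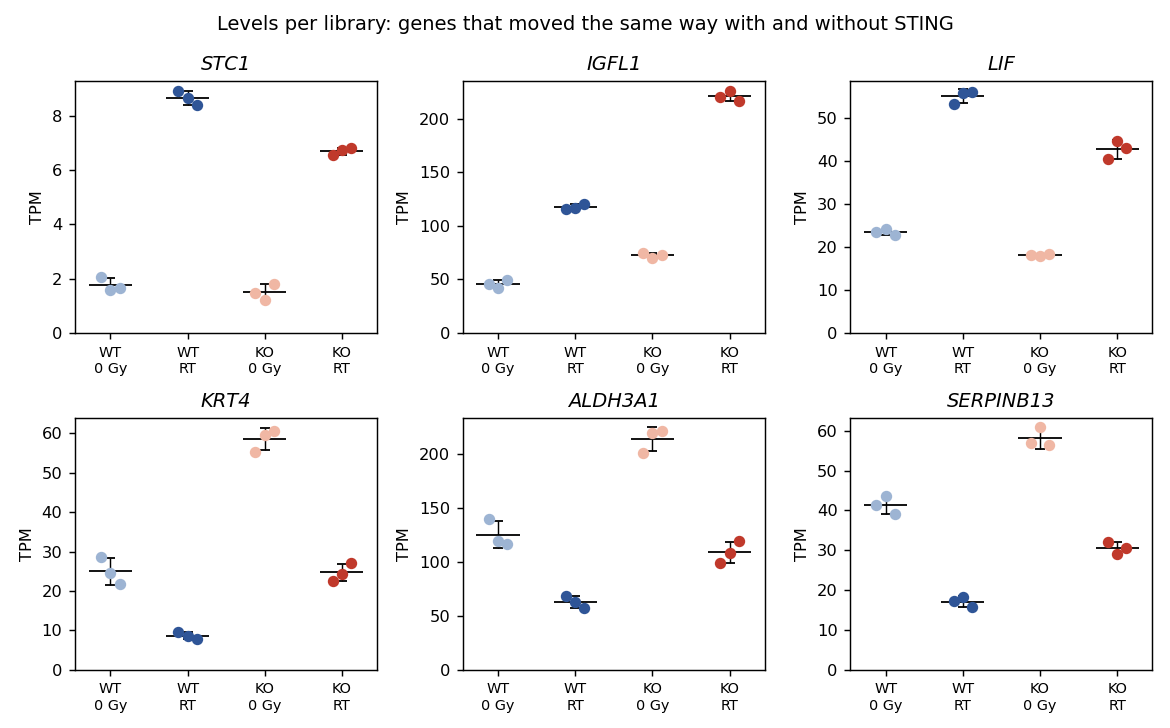
TPM of 6 kept genes in each of the 12 libraries, with each point a library, horizontal lines the group means and bars ± SD (n = 3). STC1, IGFL1 and LIF were higher in every irradiated library than in every unirradiated one of the same line, and KRT4, ALDH3A1 and SERPINB13 were lower.

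Cell cycle genes of G2/M fell in both lines, 13 of 51 in WT and 14 in KO, with 11 kept and none raised. Over all tested genes 1.50% fell in WT and 1.70% in KO, and 1.97% were kept. KIF20A, a mitotic kinesin, had effects of -0.62 and -0.56 and CDC20, the activator of the anaphase-promoting complex, -0.27 and -0.44. At an unadjusted p under 0.05, 2 members had the KO effect above the WT effect and 1 below. These were 3.92% and 1.96% of the list, near the 3.14% and 3.47% of all tested genes. Of 55 DNA replication and S phase genes, none passed in WT and 1 rose in KO, against 2.00% of all tested genes. Of 31 p53 targets, 6 rose in WT and 4 in KO, with 4 kept, against 2.24%, 2.00% and 1.97% of all tested genes. CDKN1A, the p21 inhibitor of cyclin-dependent kinases, had effects of 0.78 and 0.60. AEN, an apoptosis-enhancing nuclease, was the lost member of that list (0.44 and 0.14, difference -0.30, SE 0.08, limma unadjusted p = 0.0041). In KO it was at 34.81, 34.99 and 35.01 and then 39.42, 36.65 and 39.46 TPM. Those groups did not overlap, so AEN had a smaller response in KO rather than none.

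NRF2 targets fell in both lines, 7 of 26 in each with 5 kept, and their median difference was 0.01. Over all tested genes 1.50% fell in WT and 1.70% in KO, and 1.97% were kept. SLC7A11, the cystine importer, had effects of -0.48 and -0.47. Of 22 antioxidant enzymes, GPX8, a peroxidase of the endoplasmic reticulum, fell in WT only by the rule, from 23.2, 22.5 and 23.2 to 7.52, 12.7 and 11.2 TPM. In KO it was at 14.4, 15.5 and 13.3 TPM and then 12, 13.8 and 16.1 TPM, which overlap (difference 1.05, SE 0.22, unadjusted p = 8.2e-04, adjusted p = 0.42). GLRX2, a mitochondrial glutaredoxin, was gained, with effects of 0.05 and 0.54. DUOX2, named in the study, was at most 0.593 TPM in any library and was not tested.

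MPP7, a scaffold of cell polarity and tight junctions, had the smallest p of all for the difference. It was at 18.6, 17.2 and 17.2 TPM in unirradiated and 13.4, 13.8 and 12.5 TPM in irradiated WT libraries. In KO libraries it was at 8.57, 8.26 and 8.64 TPM and then at 15.3, 16.0 and 15.9 TPM. No group overlapped the other in either line, and the direction was opposite. The effects were -0.39 in WT (adjusted p = 0.0062) and 0.82 in KO (adjusted p = 1.1e-04), a difference of 1.21 (SE 0.08, limma adjusted p = 5.5e-04). This call held without each library in turn. MPP7 overlaps AC022021.1 on the opposite strand. In a list of polarity scaffold genes drawn up around MPP7, which makes its count no evidence about the group, MPP1, DLG1 and DLG4 had differences of 0.58, 0.19 and 0.32, and the median of the 22 tested was 0.01.

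AHNAK, which encodes a very large scaffold protein under the plasma membrane, fell past the threshold in WT only. It was at 248, 295 and 280 TPM in unirradiated and 137, 128 and 130 TPM in irradiated WT libraries, and at 298, 296 and 270 and then 251, 257 and 253 TPM in KO. The irradiated libraries were below the unirradiated ones in both lines, by far more in WT. The effects were -1.05 (adjusted p = 2.5e-05) and -0.18 (adjusted p = 0.17), a difference of 0.87 (SE 0.09, adjusted p = 0.018). The call was lost without KO unirradiated replicate 1 or 2, KO irradiated replicate 2 or 3, or WT irradiated replicate 2 or 3, with adjusted p-values over all alternatives between 0.0016 and 0.099. Its relative AHNAK2 rose in KO only by the rule (effects -0.10 and 0.75, difference 0.85, SE 0.25), with KO unirradiated libraries at 3.38, 4.03 and 7.04 TPM and irradiated ones at 8.10, 8.70 and 8.57 TPM. The exons of AHNAK and AHNAK2 cover 19465 and 18771 bases. Among the 242 genes that averaged 5 TPM or more and had over 16000 exonic bases, the median effect was 0.02 in WT and 0.06 in KO, against 0.02 and -0.01 among the 1254 genes of up to 2000 bases. The part of transcript length in the AHNAK result was not tested.

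A list of annexins, S100 proteins and dysferlin was drawn up around AHNAK, so its counts are no evidence about the group. ANXA5 and ANXA2, calcium-dependent membrane binders, had differences of 0.42 and 0.14, and the median of the 15 tested was 0.05.

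MRE11, a nuclease of the MRE11-RAD50-NBN complex that senses DNA double-strand breaks, moved in opposite directions. It was at 28.4, 24.9 and 24.4 TPM in unirradiated and 16.9, 18.5 and 17.6 TPM in irradiated WT libraries, and at 16.9, 16.2 and 18.7 and then 22.1, 25.9 and 25.6 TPM in KO. Unirradiated KO and irradiated WT libraries were at a like level, and no group overlapped within a line. The effects were -0.52 (adjusted p = 0.0089) and 0.48 (adjusted p = 0.014), a difference of 1.00 (SE 0.12, limma adjusted p = 0.035). This was the least steady of the 3 calls. It was lost without KO unirradiated replicate 1 or 2, KO irradiated replicate 2 or 3, WT unirradiated replicate 1 or 2, or WT irradiated replicate 1, 2 or 3, with adjusted p-values over all alternatives between 0.014 and 0.19. MRE11 overlaps ANKRD49 on the opposite strand. Of 53 double-strand break repair and Fanconi genes, 2 had the KO effect above the WT effect at an unadjusted p under 0.05 (MRE11 and BRIP1, 0.22) and 1 had it below (RAD54L, -0.44), and the list's median was 0.01. These were 3.77% and 1.89% of the list, near the 3.14% and 3.47% of all tested genes.

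**Figure D5:**
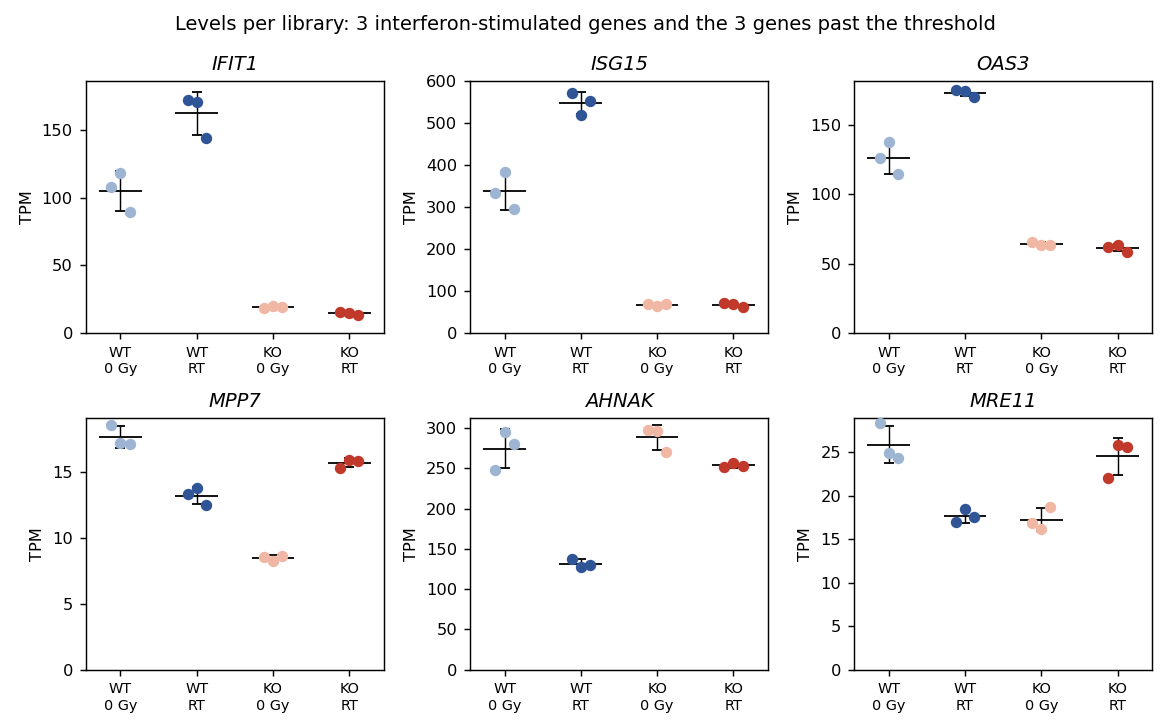
TPM of IFIT1, ISG15 and OAS3 and of MPP7, AHNAK and MRE11 in each of the 12 libraries, with each point a library, horizontal lines the group means and bars ± SD (n = 3). The upper genes were higher after radiation in WT only, and for MPP7 and MRE11 the KO groups moved upward where the WT groups moved downward.

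The next genes by p with the KO effect above the WT effect, at a mean TPM of at least 5, were RIT1, CDKN2C, JMJD6, PPP5C and MED6, all with adjusted p-values of at least 0.19. RIT1, a RAS-like GTPase, was at 24.4, 25.5 and 24.7 and then 20.9, 20.7 and 20.9 TPM in WT, and at 25.8, 22.9 and 24.4 and then 28.5, 29.1 and 28.8 TPM in KO. CDKN2C, the p18 inhibitor of CDK4 and CDK6, fell in WT from 40.5, 42.1 and 40.4 to 32.7, 30.4 and 28.7 TPM and was between 51.5 and 54.7 TPM in all KO libraries. JMJD6, an iron-dependent hydroxylase, rose in KO from 31.7, 30.8 and 26.7 to 45.3, 44.8 and 44.9 TPM, close to the 46.4 to 52.0 TPM of all WT libraries. The phosphatase PPP5C and the Mediator subunit MED6 were gained by the rule, with differences of 0.46 and 0.38. PPP5C had effects of -0.11 in WT and 0.35 in KO, and MED6 had -0.16 and 0.22. In both genes every irradiated WT library was below every unirradiated one, though neither WT effect passed the threshold.

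In the other direction the 8 were IFIT1, OAS3, ISG15, IFIT2, PVR, TMEM164, CCNF and MBD3. PVR, the poliovirus receptor and a ligand of DNAM-1 and TIGIT, rose in WT from 25.8, 23.5 and 26.3 to 41.2, 37.0 and 41.9 TPM. In KO it was at 34.8, 35.8 and 35.1 TPM and then at 35.0, 23.1 and 26.5 TPM, with overlap (difference -0.98, SE 0.17, unadjusted p = 1.8e-04). CCNF, cyclin F of G2 phase, fell in KO from 61.9, 64.2 and 61.5 to 48.0, 46.6 and 45.7 TPM, and its WT effect was -0.08. MBD3, a subunit of the NuRD repressor, fell in KO (-0.51) against 0.22 in WT.

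Genes with the largest differences among the lost and gained were often low or spread within a group. The libraries were made from polyadenylated RNA, and how well small RNAs were captured in them was not tested. SNORA6, a small nucleolar RNA inside RPSA, was between 1.70 and 5.19 TPM in unirradiated WT libraries and at most 0.00675 TPM in irradiated ones, and in KO it reached 2.41 and 4.42 TPM in irradiated replicates 2 and 3 and was near 0 in the others. AL139300.1, SNORD11 and SCARNA12 among the lost that rose in WT, and AC013403.2 among those that fell, were likewise at low TPM and overlap other genes. AC013403.2 reached a TPM of 1 only in unirradiated WT libraries, so it entered the test through the group where it was high. C16orf58 and TMEM250 fell in WT, by 0.74 and 0.83 on the log2 scale, and had effects of 0.39 and 0.29 in KO. Their irradiated KO libraries were spread, at 28.6, 35.9 and 46.4 TPM and at 18.2, 9.65 and 14.9 TPM. Among the gained, MED22, a Mediator subunit, was at 24.4, 26.8 and 25.2 TPM in irradiated KO libraries and above 54 TPM in 8 of the other 9, the exception being WT unirradiated replicate 3 at 26.1 TPM. TTC19, a mitochondrial complex III assembly factor, was at 41.2, 47.8 and 46.4 TPM in irradiated KO and at 41.3 TPM in WT unirradiated replicate 2, against 20.1 to 25.5 TPM in the other 8 libraries. TMEM164 was at 14.8 to 18.1 TPM in unirradiated and 7.26 to 8.66 TPM in irradiated KO libraries. In WT it was at 6.35, 8.72 and 13.4 TPM and then at 14.09, 13.63 and 15.05 TPM, without overlap. The effects of TMEM164 were 0.60 in WT (limma adjusted p = 0.14) and -0.95 in KO, so the lines moved in opposite directions. CPEB2, an RNA-binding translation regulator, was gained upward with non-overlapping KO groups (1.88, 1.73 and 1.32, then 3.00, 3.19 and 3.11 TPM). PPAN, AC011558.1, Y_RNA, AP001318.3 and AC011479.1 completed the gained genes named by size, with differences of 0.77, 0.87, -1.68, -1.42 and -1.31.

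Metabolic and housekeeping lists differed little between lines. Cytosolic ribosomal protein genes had a median difference of -0.04, with 5 of 77 lower at an unadjusted p under 0.05, led by RPS26 (-0.19). These were 6.49% of the list, against 3.47% of all tested genes. Each of the 13 mitochondrially encoded mRNAs had a KO effect above the WT effect, with a median of 0.10, but 1 (MT-ND6, 0.41) was at an unadjusted p under 0.05. That median was 0.04 without KO unirradiated replicate 1, 0.06 without KO irradiated replicate 3 and 0.05 without WT unirradiated replicate 1. Of 30 unfolded protein and amino acid stress genes 3 were gained by the rule, against 0.563% of all tested genes. DDIT3 was gained upward, with effects of 0.04 in WT and 0.51 in KO. CEBPB (-0.12 and -0.31) and PSAT1 (-0.07 and -0.25) were gained downward. Irradiated libraries of CEBPB were below the unirradiated ones in both lines, so its fall was larger in KO rather than new. Cholesterol and fatty acid synthesis (-0.02), glycolysis and hypoxia (-0.03), TGF-beta (0.00), laminin-332 and integrins (0.00), replication-dependent histones (0.01), nuclear respiratory chain subunits (-0.02) and the 419 ZNF genes (0.00) had median differences between -0.03 and 0.01. How well histone mRNAs were captured in these libraries of polyadenylated RNA was not tested. Basal and stress keratins had a median of -0.06, from -0.13 without WT unirradiated replicate 1 to -0.005 without KO irradiated replicate 3, and 2 of 13 (KRT17 and KRT14) were lower at an unadjusted p under 0.05. Those 2 were 15.4% of the list, against 3.47% of all tested genes.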

How the data were processed

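RNA-Seq was made from polyadenylated RNA of 12 FaDu libraries, read as paired ends. The authors deposited gene-level TPM, and each library sums to 1000000, so the values keep no depth and no counting interval can be given. The submitters' processing notes name HISAT2, StringTie, DESeq2 and hg38. Annotation and strand setting are not given in the sources used here. DESeq2 needs counts, which were not analysed here. Groups came from the sample labels. The deposited columns were read with NT2 as the non-targeting line and A63 as STING KO.

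Genes reaching a TPM of 1 in no fewer than 3 libraries were fitted on log2(TPM + 1) with limma 3.58.1 in R 4.3.3 (4 group means, all 12 libraries, eBayes with trend, 8 residual degrees of freedom, Benjamini-Hochberg threshold 0.05), a fit tested on simulated data. Coordinates and overlaps came from GENCODE 29 (99.6% of tested genes matched). Alternatives were leaving out each library, blocking on the replicate number, eBayes with no trend, quantile normalization, scaling by median-of-ratios factors, a pseudocount of 0.1, no filter, and a filter on mean TPM at 5. The gene lists, classes and tests were chosen with earlier results of these data known.

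Named genes were TMEM173, genes past the threshold for the difference, the 8 smallest p-values in each direction at a mean TPM of at least 5, the 5 most changed kept, lost and gained genes in each direction, up to 4 members of each list with the smallest p, and ISG15, HERC5, KLF4 and DUOX2. Other named genes (LGALS3BP, TRIM34, IFI27, IRF9, DDX58, OASL, BST2, TRIM25, PARP12, NMI, IFNB1, IFNL1, TNFAIP3, NFKB2, MMP1, MMP10, FN1, CDH2, AREG, EREG, HBEGF, KIF20A, CDKN1A, SLC7A11 and those in the closing section) were chosen after their values were seen. Results for some genes are not reported here.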

Additional observations from a re-analysis of the deposited data

Results flagged for a closer look

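Of the results above, 3 differed between WT and KO cells by the test of the difference of radiation effects, KO minus WT. They were MPP7 (1.21), AHNAK (0.87) and MRE11 (1.00), all with the KO effect above the WT effect. MPP7 passed in all 19 alternatives, AHNAK in 10 and MRE11 in 7. Dixon's test for outlying values is not made in groups of 3 libraries.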

How the results depend on the processing

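Over 799 comparisons of list medians and gene counts with an alternative setting, 702 stayed within the spread or within 1.5 times of the value given, and no called value changed sign. Without the eBayes trend 1 gene passed for the difference of effects. With no filter 5 passed, 766 and 987 genes had the KO effect above or below the WT effect at an unadjusted p under 0.05, 387 genes changed in WT and 361 in KO, 207 were kept, 6 interferon-stimulated genes were raised in WT, and the medians of the interferons and receptors and of the NADPH oxidase subunits were 0. With genes filtered at a mean TPM of 5 the AP-1 median was -0.169. With the replicate number as a block 1 gene passed for the difference, and 315 changed in WT and 359 in KO. In that fit 184 were kept, 58 lost and 58 gained. Deviations of same-numbered libraries had r from -0.060 to 0.064 over 18 pairs. That cannot show whether these libraries were prepared together, and no source used here says so. Among members at 5 TPM or more in unirradiated KO, chosen after seeing the data, the interferon-stimulated median was -0.210.

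Leaving out 1 library at a time left 1 to 9 genes past the threshold for the difference (9 without KO irradiated replicate 1), 242 to 526 genes changed in WT, 268 to 553 in KO, 174 to 227 kept, 44 to 97 lost, 44 to 94 gained and 5 to 11 interferon-stimulated genes raised in WT. Median differences then ranged from -0.383 to -0.179 for interferon-stimulated genes, 0.0052 to 0.136 for AHNAK and annexins, -0.184 to -0.0516 for AP-1, -0.0617 to -0.0034 for S phase, -0.132 to -0.0403 for EGFR, 0.0113 to 0.0632 for G2/M, -0.108 to 0.0032 for NADPH oxidase, -0.0108 to 0.0330 for NRF2, -0.112 to -0.0523 for the STING pathway, -0.0533 to 0.0305 for TGF-beta, -0.142 to 0.0196 for class I, -0.0568 to -0.0252 for ribosomal proteins, 0.0014 to 0.0428 for break repair, -0.0829 to 0.0104 for glycolysis, 0.0287 to 0.0921 for interferons and receptors, -0.0144 to 0.144 for keratinocyte differentiation, -0.0624 to 0.0254 for metalloproteinases, -0.0601 to 0.0249 for mesenchymal genes, -0.208 to -0.0821 for interferon gamma genes, -0.106 to -0.0286 for NF-kB, -0.130 to -0.00465 for keratins, 0.0433 to 0.154 for mitochondrial mRNAs, -0.101 to 0.110 for histones, -0.0305 to 0.0073 for respiratory subunits and -0.166 to -0.0410 for secreted factors. The causes were not tested. TPM keeps no depth, so counting error is unknown.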

Other observations

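Several lost responses fell outside the lists and were named after their values were seen. VEGFC, a lymphatic growth factor, rose in WT from 8.08 ± 0.71 to 12.4 ± 0.99 TPM (mean ± SD, n = 3) and was at 2.61 ± 0.14 and 2.64 ± 0.52 TPM in KO, a difference of radiation effects of -0.56. FGF2, a fibroblast growth factor, rose in WT from 16.9 ± 1.7 to 25.0 ± 2.2 TPM and was at 2.71 ± 0.20 and 2.88 ± 0.35 TPM in KO, a difference of -0.47. PTGS2, the inducible cyclooxygenase, had effects of 0.63 in WT and 0.08 in KO, and SPRY2, a feedback inhibitor of receptor tyrosine kinases, 0.61 and 0.24. CCND1, cyclin D1, had 0.22 and 0.06. EDN2, endothelin-2, ran the other way, falling in WT by 0.51 on the log2(TPM + 1) scale against an effect of 0.25 in KO. None of these 6 differences passed the adjusted threshold of limma.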
